A study of Sparus aurata with 53 samples.

Results

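Among the 13,940 probes of a custom oligonucleotide array for gilthead sea bream (Sparus aurata), 185 followed a 24 h rhythm with a fitted peak from 0 h to under 3 h zeitgeber time, that is, from lights on through the first hours of light. They made up 1.33% of all probes and 20.7% of the 892 probes that met the same conditions with a peak at any hour, and were the most of the 8 windows of 3 h that follow each other from 0 h (161 probes peaked from 21 h to under 24 h and 125 from 3 h to under 6 h). A probe was taken if a least-squares fit of a cosine and a sine of 24 h over all 53 arrays explained at least 0.3 of its variance (R2), its amplitude (the height of the fitted peak over the middle of the curve) was at least 0.4 log2 units, and it was well above background on at least 27 arrays. Amplitude, peak hour and R2 therefore chose these probes, and they are given as a description with no test.

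The arrays came from whole single larvae at 30 days post hatching, reared at 19 °C and 34‰ salinity with a light phase and a dark phase of 12 h each and fed rotifers and then Artemia without restriction. Groups were larvae taken every 3 h at 0, 3, 6, 9, 12, 15, 18, 21 and 24 h zeitgeber time, with light on at 0 h and off at 12 h, and each had 6 larvae apart from 12 h, which had 5. All groups shared age, diet and light regime and differed in the hour of sampling. Larvae came from several tanks, the tank of each array was not given, and tests below measure the spread between larvae. RNA of the whole body holds every tissue. The study names further retinal genes on this array without a clone code, such as phosducin and arrestin, and their peaks are not given here. Among retinal genes only the rod and cone phosphodiesterase gamma subunits could be tied to a clone. Both clones were above background on all 53 arrays, and they peaked at 3.96 h and 4.84 h with amplitudes of 0.80 and 1.56. Their part in the course of the 185 probes was not tested, and in whole larvae fewer cells of a type and less RNA per cell cannot be told apart.

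In vertebrates the daily rhythm of transcripts rests on a loop in which CLOCK and BMAL1 switch on the period and cryptochrome genes, whose proteins then hold back their own transcription. Light, feeding and this loop together set the hour at which genes of metabolism, of the cell cycle and of stress protection are transcribed. For a visual feeder such as a fish larva, dawn ends the nightly fast.

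Levels are log2 intensities relative to the 75th percentile of each array, so that 0 is the brightness of a probe at that percentile and a difference of 1 is a doubling. The 185 probes covered levels from -4.88 to 5.42 with a median of -0.66, and levels of different probes are not compared, since probes differ in brightness for equal amounts of RNA. Depth on an array is signal over background. Single arrays had 74.2% to 94.3% of all probes well above background. Of the 185 probes 154 were so on all 53 arrays, and the other 31 on at least 32 of them. The arrays lay on 7 slides scanned in 3 batches, and every slide held at most 1 larva of a sampling time.

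The 185 probes were high together from 24 h to 3 h and low together from 12 h to 15 h. Their mean, with each probe set to 0 over its own arrays, was 0.56 ± 0.04 at 0 h (SD over 6 larvae), 0.54 ± 0.04 by 3 h and 0.18 ± 0.11 by 6 h. It was below 0 at 9 h (-0.34 ± 0.10), 12 h (-0.68 ± 0.09, 5 larvae), 15 h (-0.80 ± 0.08) and 18 h (-0.35 ± 0.16), and above 0 again at 21 h (0.22 ± 0.11) and 24 h (0.55 ± 0.07). At 0, 3 and 24 h all 185 probes stood above their own mean, and at 12 h and 15 h none did. The rule largely fixes these counts, since it chose the probes by this course. The lowest larva at 3 h had a mean of 0.47, above the highest larva at 6 h with 0.39, and the larvae of 12 h (-0.75 to -0.53) overlapped those of 15 h (-0.88 to -0.67). Between sampling times the mean changed by -0.36, -0.52, -0.34 and -0.12 log2 units on the way from 3 h to 15 h, and by 0.45, 0.57 and 0.32 on the way from 15 h to 24 h. Over the same day the median of all probes moved between -0.05 at 0 h and 0.10 at 18 h, and with each array centred on its median instead the mean of the 185 probes spanned 1.43 log2 units in place of 1.36.

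**Figure D1:**
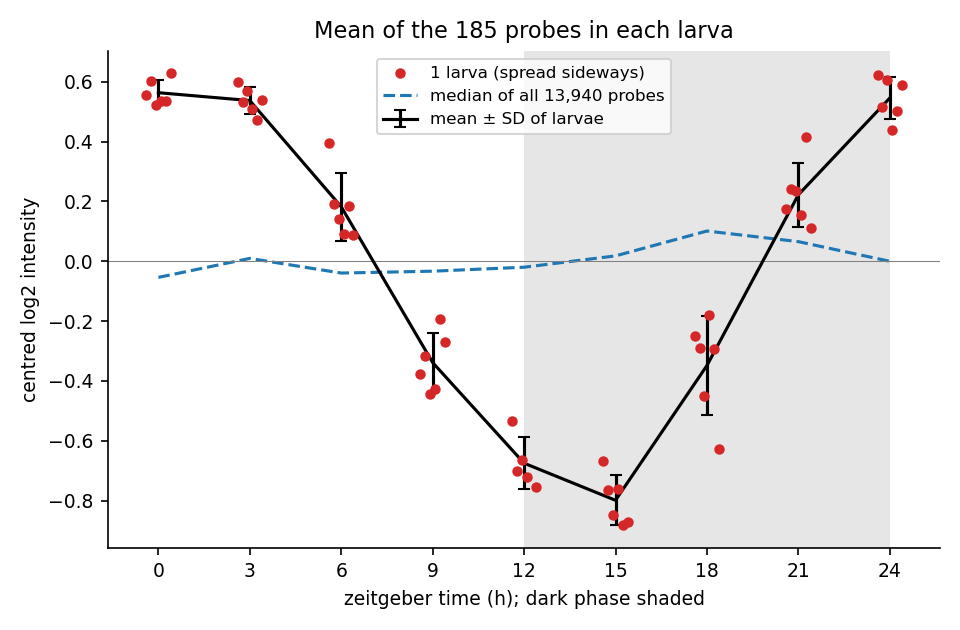
Mean of the 185 probes in each larva (red points, spread sideways within a sampling time) on centred log2 intensity against zeitgeber time in hours, with the mean ± SD of the larvae in black and the median of all 13,940 probes as a dashed blue line. Larvae of 0 h, 3 h and 24 h lie between 0.44 and 0.63, and those of 15 h between -0.88 and -0.67.

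The highest mean of a probe fell at 24 h in 65 cases, 3 h in 57, 0 h in 55, 21 h in 6 and 6 h in 2. Its lowest mean fell at 15 h in 124 cases, 12 h in 48, 9 h in 8 and 18 h in 5. In 156 of the 185 probes every larva of the highest hour lay above every larva of the lowest hour, which was true of 15.6% of all probes. Under the F test over the 9 sampling times (limma, Benjamini-Hochberg), 184 of the 185 passed an adjusted p of 0.05 against 15.7% of all probes, and under the test of the 24 h cosine all 185 did against 29.6%. Because the rule used the same course, these counts only restate it.

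Amplitudes ran from 0.40 to 2.59 with a median of 0.59, and 31 probes reached 1, 9 reached 1.5 and 4 reached 2. For the 154 probes above background on every array the mean of the highest hour was 1.73-fold to 27.1-fold that of the lowest, with a median of 2.43-fold, and 133 of them reached 2-fold and 19 reached 4-fold. R2 ran from 0.31 to 0.95 with a median of 0.55. The standard error of a fitted peak was between 0.13 h and 0.84 h with a median of 0.51 h, so that neighbours in the order of peaks were mostly closer than their errors.

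**Figure D2:**
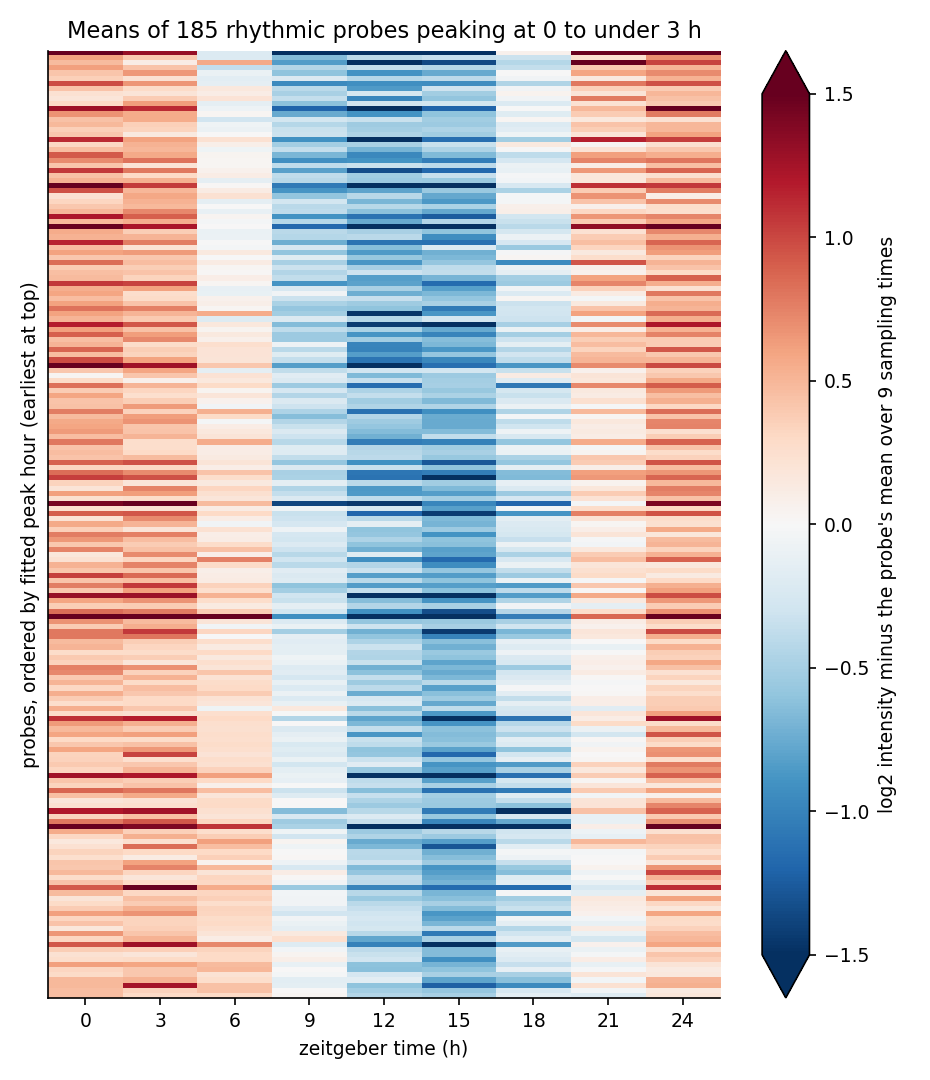
Means of the 185 probes at the 9 sampling times (columns, zeitgeber time in hours), each minus its own mean in log2 units and ordered from the earliest fitted peak at the top to the latest at the bottom. Red marks hours above and blue hours below the mean of the probe, and the blue block moves from 9-15 h in the upper rows to 12-18 h in the lower ones.

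Within the window, 49 probes peaked before 1 h, 64 from 1 h to under 2 h and 72 from 2 h to under 3 h. The 49 earliest were at their mean at 6 h (-0.02 ± 0.16 log2 units, SD over 6 larvae), already low at 9 h (-0.58 ± 0.21) and about equally low at 12 h and 15 h (-0.81 ± 0.09 and -0.78 ± 0.12). The 72 latest were still at 0.30 ± 0.07 at 6 h, reached -0.14 ± 0.05 at 9 h and had a single trough of -0.79 ± 0.10 at 15 h. On the way up the earliest stood at 0.46 ± 0.13 at 21 h, against 0.04 ± 0.10 for the latest. These differences follow from the ordering by peak.

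The edges of the rule passed through close neighbours. The alpha-crystallin B chain probe (C2_4364, peak 0.006 h) was the earliest member, and hyaluronan synthase 1 (C2_14211, amplitude 1.61) fell just outside with a peak at 23.9994 h. At the other limit C2_84305 peaked at 2.97 h and C2_30225 at 3.001 h. The smallest amplitude inside was 0.401 (C2_10863) and the largest outside 0.399 (C2_3798), and the smallest R2 inside was 0.305 (C2_32804) and the largest outside 0.297 (C2_7510). On background, C2_77723 was inside with 32 arrays and C2_99692, with an amplitude of 1.95, outside with 20. In all 22 members lay within 0.25 h of a limit of the window, 37 within 0.05 of the amplitude limit and 14 within 0.05 of the R2 limit.

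Of the 185 probes 14 have a clone code that the study prints beside a gene name, and the other 171 are known here by clone code alone. The study annotated all genes of the array, but its full list of called genes gives names without codes. That list was not matched to these clones, so a clone called unnamed below can be a gene that the study names. Of the codes 152 belong to the C2 and 33 to the C3 series, and the 17.8% of C3 codes compare with 15.1% over all probes. The 14 named probes are given here by the known role of each protein.

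Uncoupling proteins let protons back across the inner mitochondrial membrane without making ATP, and UCP1 does so to make heat in mammalian brown fat. UCP2 (C2_60770) had levels of 4.89 (lowest larva), 5.37 (median) and 5.99 (highest) at 24 h, and of 0.996, 1.505 and 1.80 at 15 h. The larvae of these hours did not overlap, and their means were 14.7-fold apart. The fitted amplitude was 2.07 ± 0.12 (SE) and the peak 2.43 ± 0.22 h. The low phase of UCP2 lasted through 12, 15 and 18 h (means 1.67, 1.49 and 1.61), and at 18 h its larvae spread from 0.38 to 3.53. UCP1 (C2_5902) had 3.12, 3.67 and 4.12 at 24 h, and its 5 larvae at 12 h had 1.96, 2.03, 2.36, 1.91 and 1.88. Its fitted peak at 0.06 ± 0.33 h was earlier than that of UCP2 and its amplitude of 0.79 ± 0.06 smaller. Both probes had their highest mean at 24 h (3.63 for UCP1 and 5.37 for UCP2), so the sampled means do not show this order. The larvae of UCP1 at 24 h and 12 h did not overlap either (3.04-fold). Over the other settings of background, scaling and block the fitted peak of UCP1 ranged from -0.05 h to 0.32 h, partly outside the window. UCP3 (C2_22601), the third of the family, peaked at 22.7 h and lies outside the window. The study also lists another entry for UCP2, without a clone code, with smaller changes over the day. MOSC domain-containing protein 2 (C2_26959), a molybdenum enzyme of the outer mitochondrial membrane in mammals, stood at 0.16 ± 0.41 at 3 h and -1.47 ± 0.13 at 15 h (SD, n = 6 each), 3.08-fold.

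Alpha-crystallin B chain (C2_4364), a small heat shock protein of lens and muscle, had the highest R2 of the set (0.95) and the largest fold among probes above background on every array. Its levels at 24 h were 2.24 (lowest larva), 2.35 (median) and 2.65 (highest), and at 12 h its 5 larvae had -2.30, -1.82, -2.51, -2.70 and -2.53. The gap between these hours was 27.1-fold, with no overlap. From 12 h the level climbed to 0.33 ± 0.46 at 18 h and 1.76 ± 0.20 at 21 h, all in the dark. Prostaglandin E synthase (C2_4596), the last enzyme on the way to prostaglandin E2, peaked at a like hour with a smaller amplitude (peak 0.26 ± 0.36 h, 0.82 ± 0.07), with -0.78 ± 0.44 at 24 h and -2.45 ± 0.35 at 12 h (SD, n = 6 and 5).

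Of the named probes 2 code for enzymes of nucleotide metabolism. Uridine phosphorylase 2 (C2_552), which splits uridine into uracil and a sugar phosphate, peaked at 0.22 ± 0.31 h with an amplitude of 1.58 ± 0.12. Its levels were 1.70 (lowest larva), 1.96 (median) and 2.73 (highest) at 24 h, against -1.75, -2.28, -1.70, -1.63 and -0.56 in the 5 larvae of 12 h, a 12.4-fold gap with no overlap. Amidophosphoribosyltransferase (C2_45870), the first committed enzyme of purine synthesis, peaked at 2.38 ± 0.67 h with an amplitude of 0.44 ± 0.08, and its peak ranged from 1.51 h to 2.85 h over the other settings of background, scaling and block. It stood at -1.69 ± 0.24 at 3 h and -2.77 ± 0.42 at 15 h (SD, n = 6 each). Its larvae at 12 h spread from -3.44 to -1.82, and the highest of them lay within the range at 3 h (-1.99 to -1.37).

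Another 3 named probes code for proteins of the cell cycle, of DNA replication or of dividing cells. The retinoblastoma-associated protein (C2_15396), which holds cells before the start of DNA synthesis, peaked at 0.44 ± 0.40 h and stood at -1.34 ± 0.15 at 0 h and -2.30 ± 0.25 at 12 h (SD, n = 6 and 5), 1.95-fold. DNA polymerase epsilon subunit 2 (C2_17954), a part of the polymerase of the leading strand, peaked latest of the named genes at 2.90 ± 0.54 h. Its peak ranged from 1.80 h to 3.54 h over the other settings of background, scaling and block, partly outside the window. It stood at -2.82 ± 0.18 at 6 h and -3.95 ± 0.16 at 12 h, 2.18-fold. Guanine nucleotide-binding protein-like 3 (C2_1122, nucleostemin), a nucleolar GTPase of dividing cells, stood at 0.17 ± 0.46 at 3 h and -1.12 ± 0.46 at 15 h (SD, n = 6 each). Its larvae overlapped between these hours, with a lowest larva of -0.53 at 3 h and a highest of -0.36 at 15 h. A list headed DNA replication and repair had 34 measured clones. Some of them have other roles, such as nocturnin and a microsomal glutathione S-transferase, so the counts are not counts of replication and repair genes. Of the 34, 4 were among the 185 probes (the 3 above and nocturnin). Another 15 met the other conditions of the rule with a peak from 3 h to under 6 h. Of these 34 clones 30 come from a table the study drew up on these same larvae, which is not independent evidence.

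Clock-associated genes that the study lists without a clone code, such as thyrotroph embryonic factor, were not matched to clones and can be among the unnamed members. Of the 10 clock and clock-associated genes with a code, only nocturnin (C2_4674) was in the set, a phosphatase of NADPH known for its rhythm in vertebrate retina and liver. It peaked at 0.79 ± 0.71 h with an amplitude of 0.44 ± 0.08, and its larvae at 24 h (-2.90, -2.49 and -1.82 as lowest, median and highest) overlapped those at 12 h (-3.12, -3.03, -3.74, -2.82 and -3.88). Cryptochrome-2 (C2_63385) missed the window by a peak at 3.05 h, period 2 (C2_58904) had a peak at 2.998 h but was above background on 5 arrays only, and period 3 (C2_44391) peaked at 23.5 h. Over the 9 means, the correlation of single members with period 3 ran from 0.54 to 0.97 (median 0.81), with C2_62559 the most alike, and with cryptochrome-1 (C2_13248) from 0.42 to 0.96 (median 0.80), with C2_6849 the most alike. The 9 means come from the same larvae for both genes of a pair, and the window itself limits how far such values can fall.

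Beta-tectorin is a protein of the tectorial membrane in the mammalian inner ear, and 2 clones carry this name. Beta-tectorin (C3_c27904) had -2.20 (lowest larva), -1.97 (median) and -1.54 (highest) at 3 h, and -4.41, -4.04 and -3.86 at 15 h, a 4.38-fold gap. The beta-tectorin-like clone (C3_lrc16146) stood at 0.92 ± 0.13 at 3 h and -0.26 ± 0.37 at 15 h (SD, n = 6 each), 2.26-fold. Their peaks at 2.48 ± 0.38 h and 2.62 ± 0.40 h differed by less than their errors, and their sequences were not at hand to say whether the probes can share transcripts. LRRC58 (C2_32804), a leucine-rich repeat protein, was above background on only 36 arrays and on 1 of 5 at 12 h, and no fold is given for it. Normexp, a background correction run here with an added offset, lowered the amplitudes of 7 of the 14 named genes by over 1.5 times. They were 0.41 for prostaglandin E synthase (C2_4596), 0.19 for the retinoblastoma-associated protein (C2_15396), 0.12 for nocturnin (C2_4674), 0.16 for amidophosphoribosyltransferase (C2_45870), 0.21 for beta-tectorin (C3_c27904), 0.07 for DNA polymerase epsilon subunit 2 (C2_17954) and 0.04 for LRRC58 (C2_32804), and the fitted peaks of the first 3 and of LRRC58 moved to before 0 h.

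**Figure D3:**
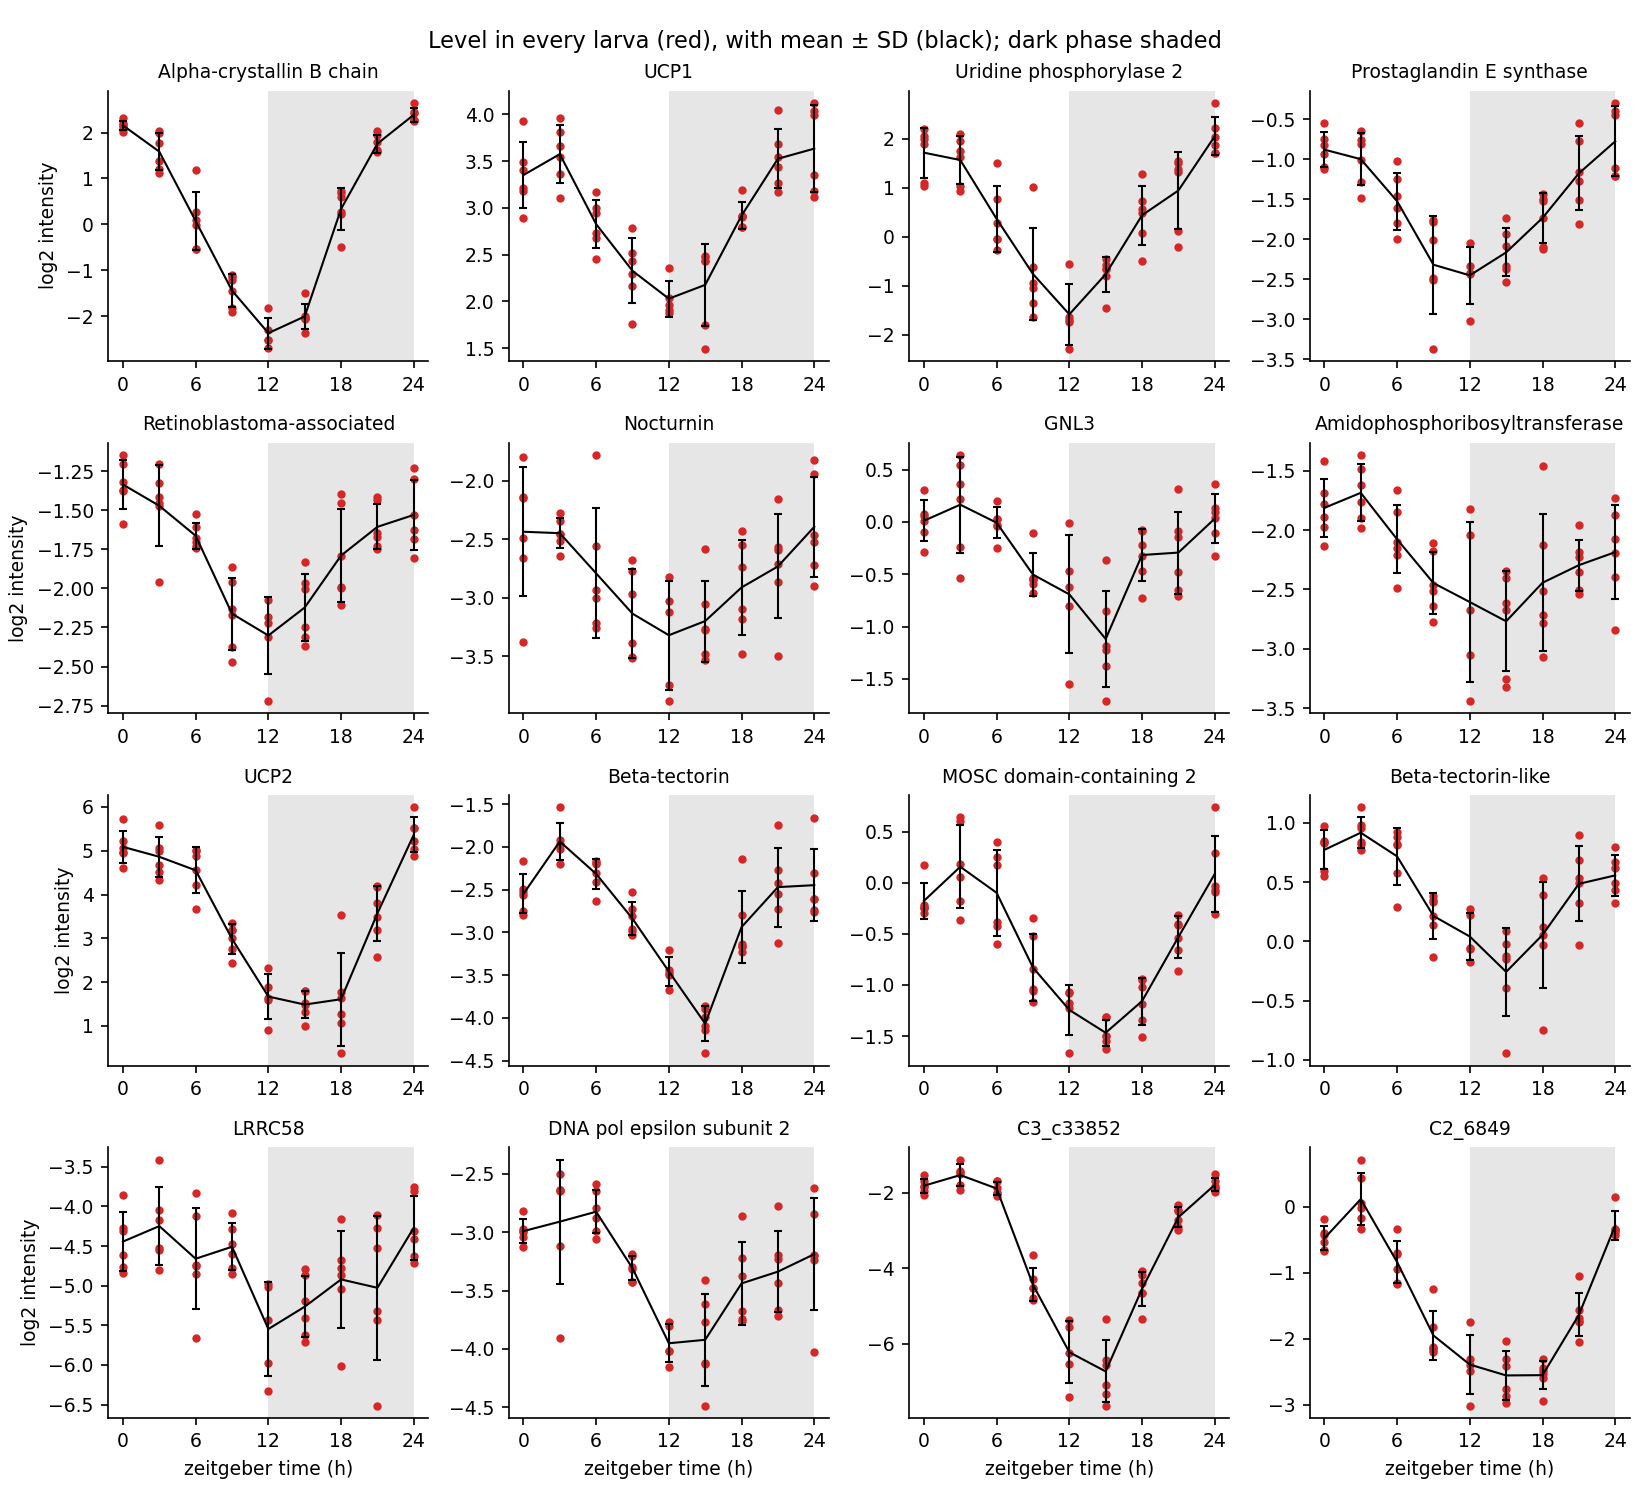
Log2 intensity in every larva (red points) of the 14 named genes and of the clones C3_c33852 and C2_6849 against zeitgeber time in hours, with mean ± SD in black and the dark phase shaded. Alpha-crystallin B chain, UCP2 and C3_c33852 show wide gaps between the hours around 0 h and those from 12 h to 15 h, and nocturnin larvae of 24 h and 12 h overlap.

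The largest fitted amplitude, 2.59 ± 0.11, belonged to an unnamed clone, C3_c33852, which peaked at 1.96 ± 0.17 h. Its levels were -1.92 (lowest larva), -1.48 (median) and -1.13 (highest) at 3 h, and -7.64, -6.84 and -5.35 at 15 h, where none of its 6 larvae was well above background, nor was any of the 5 at 12 h. At 15 h each larva was given the higher of its own value and the lowest value above background on its array. Against the mean of these, the level at 3 h was 24.8-fold higher on the processed signal. This is no lower bound under other background corrections, where the amplitude was smaller. C2_51141 (amplitude 2.14 ± 0.14, peak 0.63 h) stood at 0.42 ± 0.61 at 24 h and -4.39 ± 0.76 at 15 h (SD, n = 6 each), where 5 of 6 larvae were above background. C2_12055 (1.61 ± 0.13, peak 1.14 h) stood at 1.38 ± 0.21 at 0 h and -2.47 ± 0.88 at 12 h (SD, n = 6 and 5). The first place of C3_c33852 rests on hours where it was not above background. Its amplitude was 1.87 under median signal minus background, where alpha-crystallin B chain (C2_4364) had 2.28 and UCP2 (C2_60770) 2.04, and 0.63 under normexp, where they had 1.88 and 2.00. That of C2_51141 was 1.05 under normexp. Of the 5 largest amplitudes, 3 thus belong to clones without a name here and the other 2 to alpha-crystallin B chain and UCP2.

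Some clones moved together from larva to larva within an hour, a measure the rule did not use. After removal of the mean of each sampling time, the correlation between 2 probes over the 53 larvae was 0.05 at the median of the 17020 pairs of the set, 0.013 over all pairs of the 892 rhythmic probes and 0.014 over all pairs of the 11722 probes above background on at least 27 arrays. In 69 pairs it was over 0.8, which is 0.405% of the pairs, against 0.257% over the 892 rhythmic probes. The closest pair was C3_c59360 and C3_c11151 (r = 0.98), with amplitudes of 0.92 and 0.94 and peaks at 1.27 h and 1.40 h. C3_c774 with C3_s61986 (0.96), C2_6512 with C2_12296 (0.93) and C3_c774 with C3_c12821 (0.93) followed. Pairs of C2 clones and pairs of C3 clones were both among the 8 pairs over 0.9. The study states that the array has 1 probe for every gene. Without sequences this could not be checked, so clones of 1 gene cannot be told here from different genes. All values of a pair share the larva and the array.

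Whether the level at 24 h returned to that at 0 h was tested for every probe, since the 24 h cosine takes the same value at both hours and the contrast enters the rule only through R2. A large difference between these hours lowers R2, so the rule leans towards probes with small differences. None of the 185 probes passed an adjusted p of 0.05 (limma, Benjamini-Hochberg over all probes), against 0% of all probes, and the smallest adjusted p among them was 0.958. At an unadjusted p of 0.05, 7 of the 185 did, against 3.22% of all probes. That count was 19 with the replicate number as a block, 11 without replicate 1 and 3 without replicate 3. It was between 4 and 7 in the other alternatives run. The share of all probes is given for the main fit only, so the counts of the alternatives cannot be set against 3.22%. Of the 7, 3 were higher at 24 h (2.25% of all probes were) and 4 lower (0.968% of all probes). The difference of 24 h minus 0 h was -0.01 log2 units at the median of the 185, with 92 above and 93 below 0, whereas the median over all probes was 0.06. In the window before, the median was 0.03, and in the window after it was -0.13. The half-width of the 95% interval of a difference was 0.46 at the median, and for 161 probes the interval lay within 1 log2 unit of 0 on both sides.

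The smallest p belonged to C2_4118, which had -0.12 (lowest larva), 0.81 (median) and 1.09 (highest) at 24 h, against 1.12, 1.56 and 2.05 at 0 h. No larva of 24 h reached those of 0 h. The difference of 24 h minus 0 h was -0.91 ± 0.28 log2 units (SE), with an unadjusted p of 0.00199 and an adjusted p of 0.958 in limma. For C2_11911 the levels were -0.24, 0.15 and 0.85 at 24 h, against 0.27, 0.73 and 1.04 at 0 h, and the difference was -0.49 ± 0.21. C2_3342 went the other way, with -3.35, -2.75 and -1.65 at 24 h, against -3.81, -3.33 and -2.83 at 0 h, a difference of 0.65 ± 0.28. Larvae of both hours overlapped in both of these. For the 5 largest amplitudes, the difference was 0.02 for C3_c33852 (95% interval -0.51 to 0.55), 0.23 for alpha-crystallin B chain (C2_4364, -0.19 to 0.65), 0.55 for C2_51141 (-0.27 to 1.36), 0.28 for UCP2 (C2_60770, -0.36 to 0.91) and -0.67 for C2_12055 (-1.42 to 0.08).

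**Figure D4:**
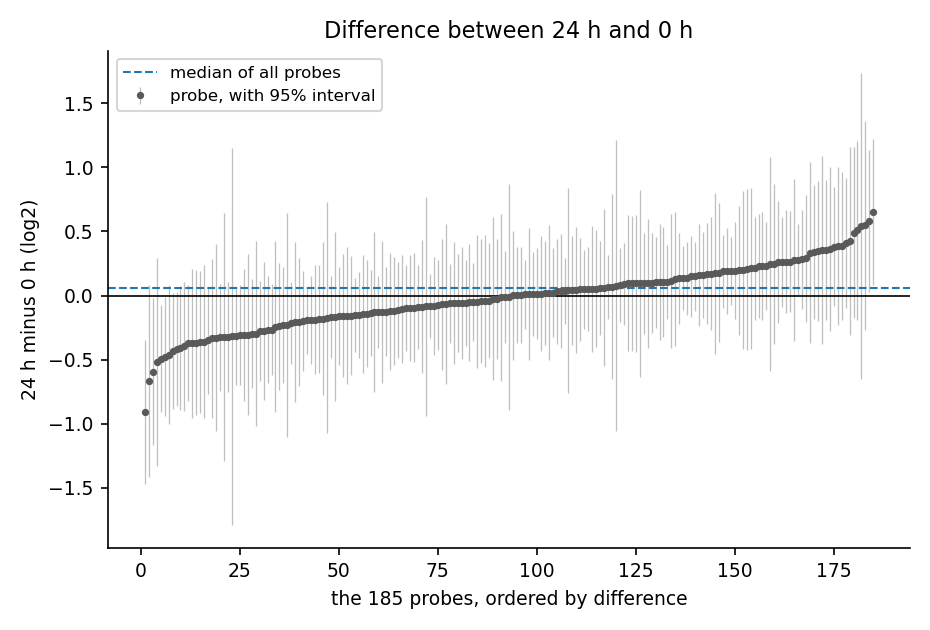
Difference of 24 h minus 0 h in log2 units for the 185 probes, ordered from the lowest to the highest, with 95% intervals in grey and the median of all probes as a dashed blue line. The differences run from -0.91 to 0.65 and cross 0 near the middle of the order.

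A course that differs from a plain cosine shows as a component of 12 h, which was tested by adding a cosine and a sine of 12 h to the fit. Of the 185 probes 2 passed an adjusted p of 0.05 (limma, Benjamini-Hochberg over all probes), against 0.1% of all probes (14 probes, of which 6 were among the 892). At an unadjusted p of 0.05, 25 of the 185 did (13.5%), against 4.24% of all probes, 11.2% in the window from 21 h, 18.4% in the window from 3 h and 12.9% of all 892 rhythmic probes. The median amplitude of the 12 h component was 0.10 log2 units for the 185 and 0.12 for the 892, and it was 0.16 of the 24 h amplitude at the median.

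The first of the 2 was C3_c33852, with a 12 h amplitude of 0.51 and an adjusted p of 0.0067 (limma). Its levels at 0, 3 and 6 h formed a plateau (-1.82 ± 0.18, -1.54 ± 0.28 and -1.89 ± 0.16, SD, n = 6 each), and then dropped to -4.44 ± 0.43 at 9 h. No larva was above background at 12 h or 15 h. Under median signal minus background the 12 h amplitude of C3_c33852 was 0.17 (adjusted p = 0.999), under normexp it was 0.19 (0.448), and the call was also lost without replicate 1 (0.151) or replicate 5 (0.156) and without the larvae of 0 h (0.0732) or of 24 h (0.0509), with 12 h amplitudes of 0.46, 0.46, 0.50 and 0.51. The second was C2_6849, with a 12 h amplitude of 0.32 and an adjusted p of 0.036, whose mean rose above its neighbours at 3 h (0.11 ± 0.39, against -0.48 ± 0.18 at 0 h and -0.84 ± 0.32 at 6 h) and lay flat at 12, 15 and 18 h (-2.39, -2.55 and -2.55). Its call was lost without any one of replicates 2, 3, 4 and 6 (adjusted p from 0.174 to 0.618, with 12 h amplitudes of 0.33, 0.32, 0.29 and 0.30), without the 12 h larva of replicate 3 (0.0536), without the larvae of 0 h (0.0732) or of 24 h (0.0956) and under normexp (0.448). Beta-tectorin (C3_c27904) came next with a 12 h amplitude of 0.28 and an adjusted p of 0.269.

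**Figure D5:**
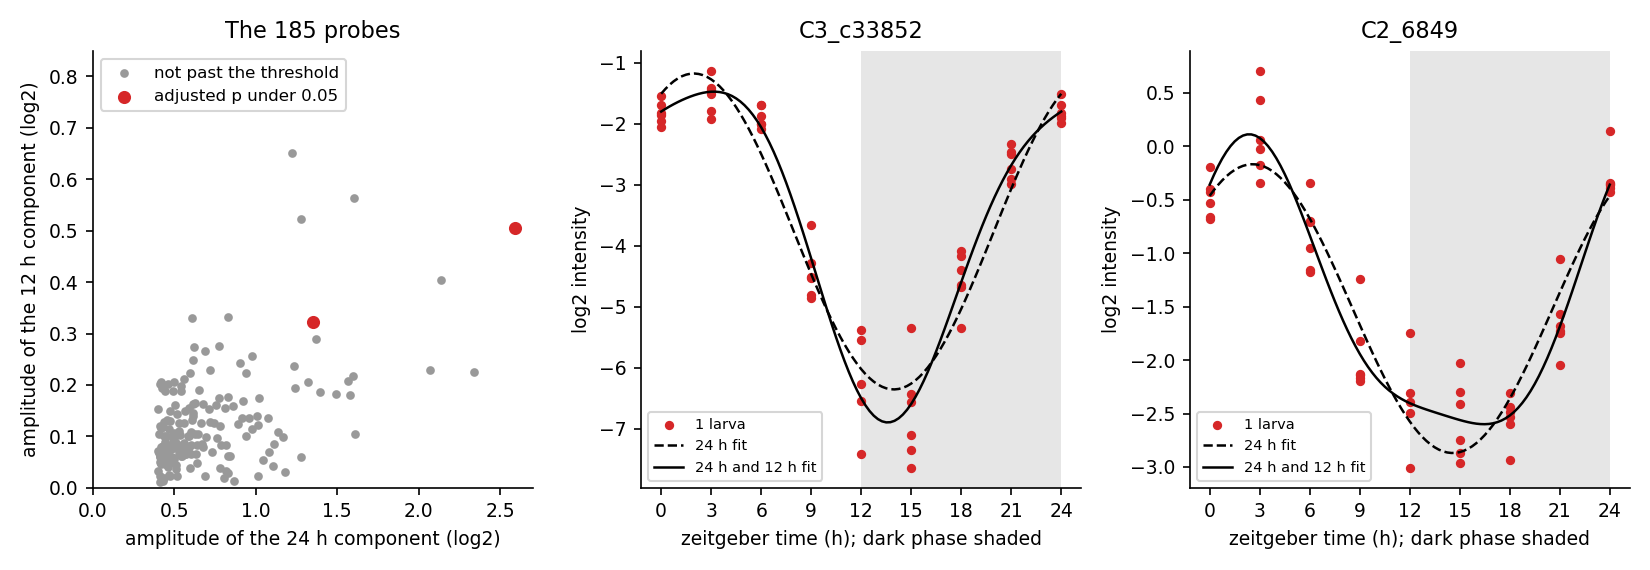
Left, amplitude of the 12 h against that of the 24 h component in log2 units for the 185 probes, with the 2 past the threshold in red. Middle and right, log2 intensity of C3_c33852 and C2_6849 in every larva against zeitgeber time, with the fit of 24 h alone (dashed) and of 24 h and 12 h (solid). C3_c33852 stays level from 0 h to 6 h before it drops, and C2_6849 has a sharp maximum at 3 h and a flat low phase.

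Of the other gene lists, the uncoupling proteins and mitochondrial carriers had 2 of 6 measured clones in the set (UCP1 and UCP2), and all 6 were rhythmic by the rule with peaks spread from 22.7 h to 10.8 h. The lists of phototransduction (2 clones), bile acid, sterol and lipid genes (3), amino acid and one-carbon metabolism (5), transporters (8) and ribosome biogenesis (7) had none. The genes whose code the study prints are ones it called or grouped on these same larvae. Rhythmic clones were thus favoured, and the 6 rhythmic carriers are no independent evidence. Over all 13,940 probes 892 were rhythmic by the rule. All these lists hold only clones whose code the study prints beside a name. Other genes of these classes, such as phosducin and arrestin, are named there without a code and were not placed. The lists without a member therefore do not show that their classes are absent from the set. No clone of any list passed the test of 24 h against 0 h or of the 12 h component. Of 30 clones that the study grouped with period 3 on these same larvae, 3 were in the set (alpha-crystallin B chain, prostaglandin E synthase and uridine phosphorylase 2), and 25 met the other conditions with a peak from 21 h to under 24 h. Of 82 it grouped with period 1, period 2 or the cryptochromes, 6 were in the set, and 49 met the other conditions with a peak from 3 h to under 6 h. These lists were chosen on the same arrays, and the counts are no independent evidence.

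Slides 1 to 5 held 8 of the 9 sampling times each, slide 6 held none of 9 h or 12 h, and slide 7 none of 0, 3 or 6 h, so that the last 2 do not cover the whole course and the peak of slide 7 lies in hours it did not sample. Fitted within single slides of 6 to 8 arrays, the mean of the 185 probes had an amplitude between 0.60 and 0.83 and a peak between 0.83 h (slide 6) and 2.28 h (slide 7), against 0.70 and 1.52 h for the 53 arrays together. Single slides had 181 to 185 of the probes peaking from 21 h to under 6 h. Within the 3 scan batches the amplitude was 0.69, 0.68 and 0.83. Since the members were chosen on all these arrays together, agreement between slides is partly fixed by the choice. Of the 185 probes 14 were printed at 2 spots, and these differed by 0.08 log2 units at the median. The largest median difference of a probe was 0.26, in DNA polymerase epsilon subunit 2 (C2_17954).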

How the data were processed

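RNA (150 ng) of single whole larvae was labelled with Cy3, and each larva was hybridised to 1 array. The authors deposited the scanner output of Agilent Feature Extraction 11.5.1.1 per array, whose intensity values (processed signal, in fluorescence units) were background-corrected by that software, and a table of log2 values, from which the authors took off each array's 75th percentile and each probe's median. The table was used as an alternative, and all its columns belonged to these samples.

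Control spots (536 per array) and 974 spots flagged as outliers were left out, the array's 75th percentile was taken from the log2 processed signal, and spots of a probe were averaged (13,940 probes). With the flagged spots kept, the rule gives 186 members, 183 of them shared with the 185 reported. A probe counted as above background where any of its spots did.

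Models were fitted in limma 3.58.1 (R 4.3.3) over all 53 arrays. The contrast of 24 h minus 0 h came from a model of 9 groups, and the 12 h component from a model with cosine and sine of 24 h and 12 h. P-values were adjusted over all 13,940 probes by Benjamini-Hochberg, with a threshold of 0.05. Standard errors of amplitude and peak came from the 24 h fit. Tables and figures used Python 3.11.15, numpy 2.4.6 and matplotlib 3.10.9. Procedures were tested on simulated data. Changes were planted only in probes of smaller spread between larvae, with noise independent between larvae, so recovery can be lower in the real data. There the contrast of 24 h minus 0 h recovered 12% of shifts of 0.5 log2 units and 75.5% of shifts of 1. Small differences between these hours would thus mostly be missed. At an amplitude of 0.5 the test of the 24 h cosine recovered 95% and that of the 12 h component 91.5%.

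Members and lists were chosen with earlier results of these data known. Names came from the study's tables by clone code (277 clones, all on the array), some of them read from page images, and none of the codes matched the RefSeq table of the fSpaAur1.1 assembly. Named in the text are all 14 members with a name, the 5 of largest amplitude, those next to each threshold, those with the 3 smallest p of each test and those most like period 3 and cryptochrome-1, and the closest pairs between larvae were named after their values were seen. Alternatives were other background corrections, normalizations, filters, blocks and thresholds, the deposited table, and leaving out replicate numbers, larvae of 12 h or whole hours. The fits within slides and scan batches were added after seeing the data. The number of arrays limits precision.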

Additional observations from a re-analysis of the deposited data

Results flagged for a closer look

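In 11 of 198 groups of larvae (the mean of the 185 probes and 21 probes at 9 hours), 1 larva stood apart by Dixon's criterion, and chance alone flags about 1 in 20 groups. The mean of the members at 6 h was 0.39 in the larva of replicate 1, against 0.09 to 0.19 in the others.

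Among named genes, UCP1 (C2_5902) at 18 h was 3.19 in replicate 5, against 2.79 to 2.91. Uridine phosphorylase 2 (C2_552) at 15 h was -1.45 in replicate 5, against -0.79 to -0.46. The retinoblastoma-associated protein (C2_15396) at 3 h was -1.96 in replicate 5, against -1.47 to -1.21. Guanine nucleotide-binding protein-like 3 (C2_1122) at 9 h was -0.10 in replicate 1, against -0.68 to -0.54. MOSC domain-containing protein 2 (C2_26959) was 0.18 in replicate 2 at 0 h, against -0.29 to -0.22, and -1.67 in replicate 4 at 12 h, against -1.23 to -1.07.

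Among unnamed clones, C2_51141 at 15 h was -2.90 in replicate 6, against -4.86 to -4.32 in the others, where the probe is near background. C2_6849, one of the clones with a 12 h component, was 0.15 in replicate 6 at 24 h, against -0.43 to -0.34. C2_11911 was -1.02 in replicate 5 at 3 h, against 0.20 to 0.84, and -0.72 in replicate 4 at 18 h, against -0.37 to -0.17.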

How the results depend on the processing

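The number of probes under the rule (185) became 100 with normexp and 122 with an amplitude minimum of 0.5, and stayed within 1.5 times in the other 29 alternatives. Of the 185, between 82.2% and 100% met the rule again under the alternatives of background, scaling, filter, block and left-out larvae, apart from normexp, where 86 of them (46.5%) did and the cause was not tested. The all-probe median of the 9 hours spanned 0.52 log2 units with normexp, in place of 0.16. No member passed the contrast of 24 h against 0 h in any of 23 alternatives, the larvae of both hours alone included.

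The 2 members past the threshold for a 12 h component became 1 under median signal minus background, 0 under normexp, 1 at an adjusted p of 0.01, 1 without the ZT12 larva of replicate 3, 0 without the larvae of 0 h and 0 without those of 24 h. Leaving out each replicate number gave 1 to 2, and each larva of 12 h likewise 1 to 2. The span of the mean course (1.36 log2 units) was 1.25 under median signal minus background and 0.92 under normexp. Within slides 1, 6 and 7 it was 1.26, 1.51 and 1.46 (slide 7 alone is scan batch 3). It was highest at 0 h or 24 h and lowest at 15 h in all 23 alternatives. The median peak (1.71 h) was 1.19 h under normexp and 2.02 h with median centring.

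Same-numbered larvae of different hours correlated at a median of 0.19 in their deviations from group means, against -0.05 for different numbers. Of 208 same-numbered pairs 137 were above 0.1, and 26 of 53 arrays lay closest to their own number. Larvae of a number thus shared a part of their deviations. They also mostly lay on the same slide, replicate 1 on slide 1 at every hour but 24 h. A shared number and a shared slide were not told apart here. The main fits did not use the number, and the fit with it is given as an alternative. With the replicate number as a block the rule gave 196 probes, 184 of them shared. The mean course spanned 1.36 and the median peak was 1.70 h. In that fit 0 members passed the contrast and 2 the test of 12 h, where both calls were kept. At an unadjusted p of 0.05 in limma 19 members passed the contrast, and the share of all probes in that fit is not given. Levels near background limit the dim probes, 26 of which were not above background in 1 or more larvae at their lowest hour.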
